A study of Homo sapiens with 3 samples.

Results

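The genes that copy DNA and supply its building blocks were followed in HGC-27, an established cell line from an undifferentiated human gastric carcinoma. They comprised 57 genes, chosen by name from the 50868 genes of the deposited table: factors that recognise and license replication origins, the MCM helicase and its activators, the sliding clamp with its loader and the single-strand binding protein RPA, the replicative polymerases, enzymes of Okazaki fragment joining and DNA topology, fork protection factors, enzymes of deoxynucleotide synthesis, and proteins that restore chromatin and DNA methylation behind the fork. The level filter, a mean of at least 1 FPKM over the 3 libraries, kept 55 of the 57 and 11103 of all genes. FPKM is the number of fragments per kilobase of gene and per unit of library depth.

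The cells received siRNA against IRF3, which switches on interferon genes during viral infection, siRNA against YAP, the coactivator that the Hippo pathway restrains, or a control siRNA. All were at passage 6 and were taken 48 h after transfection. Each condition had 1 library of total RNA. The labels describe no allele, clone or further agent, and they do not say what the control siRNA targets. Where ratios are given in pairs, IRF3 and YAP in brackets mark the siRNA whose library was divided by the control library. With 1 library per condition no difference below has a replicate check, no test was possible and no p-value is given. The question that the series title poses is how the transcriptome differs between the IRF3 and YAP knockdowns.

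Replication begins at origins marked by the origin recognition complex, on which CDC6 and CDT1 load the MCM2 to MCM7 ring. The kinase pair CDC7 and DBF4, with CDC45 and the GINS complex, turns that ring into an active helicase. Polymerase alpha with primase then starts each strand, and polymerases delta and epsilon extend it on the PCNA clamp. Many of these genes are textbook targets of the E2F transcription factors, which are released from RB late in G1, so their transcripts are often read together as a proliferation programme. YAP is known to drive proliferation with TEAD factors in many epithelial cancers.

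The promoter of MCM6, which encodes a subunit of the helicase ring, is shown because it holds the E2F motif at a pair of places. This RefSeq sequence on GRCh38.p14 lies at chr2:135876444-135876693 on the minus strand, ends at the last base before the annotated gene start, and is written 5′ to 3′. Each stretch of capitals is TTTGGCGCGAAA, in which the E2F motif TTTGGCGC and a second match on the opposite strand overlap.
MCM6: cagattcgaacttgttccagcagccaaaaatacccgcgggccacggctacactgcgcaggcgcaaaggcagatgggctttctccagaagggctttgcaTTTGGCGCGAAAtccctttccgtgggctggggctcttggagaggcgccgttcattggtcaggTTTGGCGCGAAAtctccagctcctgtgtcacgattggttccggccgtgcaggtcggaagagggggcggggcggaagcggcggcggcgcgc

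The promoter of TOP1, which encodes the topoisomerase that relieves supercoils ahead of the fork, is shown as an example without the motif. TOP1 was the kept member with the lowest log2 ratio of FPKM plus 1 in both knockdowns, though not the lowest by ratio of counts with YAP siRNA. The stretch lies at chr20:41028572-41028817 on the plus strand, from 250 to 5 bases before the gene start. None of the searched E2F motifs was found in its window, so no base is in capitals. The windows of RFC2, FEN1, TK1 and CDC45, members above the control in both knockdowns, held none either.
TOP1: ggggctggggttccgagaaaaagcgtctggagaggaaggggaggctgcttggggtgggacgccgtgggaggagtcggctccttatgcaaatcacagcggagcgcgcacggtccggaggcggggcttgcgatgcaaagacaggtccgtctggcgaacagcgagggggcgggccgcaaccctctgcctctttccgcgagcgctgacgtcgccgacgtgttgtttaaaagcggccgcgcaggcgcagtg

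The windows around the first E2F match of 6 further members, from several roles and with MCM3 and MCM7 from the same one, show the bases around the motif. Capitals mark the motif, which the search fixed. All 6 hold the variant TTTCCCGC, which is GCGGGAAA on the opposite strand, while other members hold other variants, such as TTTGGCGC in MCM6 and TTTCGCGC in POLA2. Each is 30 bases long, on the strand of its gene.
MCM3 (chr6:52284898-52284927, minus): cggatggtacgTTTCCCGCcaccgcggggc
MCM7 (chr7:100101566-100101595, minus): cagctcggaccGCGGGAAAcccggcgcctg
CDT1 (chr16:88803743-88803772, plus): ccagggcgcccGCGGGAAAtttggcgggaa
PCNA (chr20:5126663-5126692, minus): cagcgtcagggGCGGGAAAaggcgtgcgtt
TYMS (chr18:657603-657632, plus): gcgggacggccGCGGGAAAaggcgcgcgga
GINS2 (chr16:85688967-85688996, minus): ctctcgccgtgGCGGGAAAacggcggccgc

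Of the 57 members, 51 had a window in the RefSeq promoter table, which spans 250 bases before to 50 after each gene start. Not matched were GINS4, MCM4, MCM5, POLD3, RPA2 and RPA3. The E2F motif was searched as TTTCCCGC, TTTCGCGC, TTTGGCGC or TTTGCCGC on both strands. It was found in 22 of the 51 windows, or 43.1% (95% exact interval 29.3 to 57.8%), against 908 of 27305 windows of all genes, or 3.33%. Among genes kept by the level filter the share was 5.71%. The NF-Y motif CCAAT was found in 52.9% of member windows, against 35.7% of all windows and 37.6% of those of kept genes. The CHR motif, TTTGAA or TTCGAA, is a textbook element of genes that peak in mitosis. It was found in 3 of the 51 member windows, or 5.88% (95% exact interval 1.23 to 16.2%), against 16.6% of all windows and 10.03% of those of kept genes, and in 24 of 29 windows (82.8%) of a list of mitotic genes. A match describes these letters in this window and is not a binding site.

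**Figure D1:**
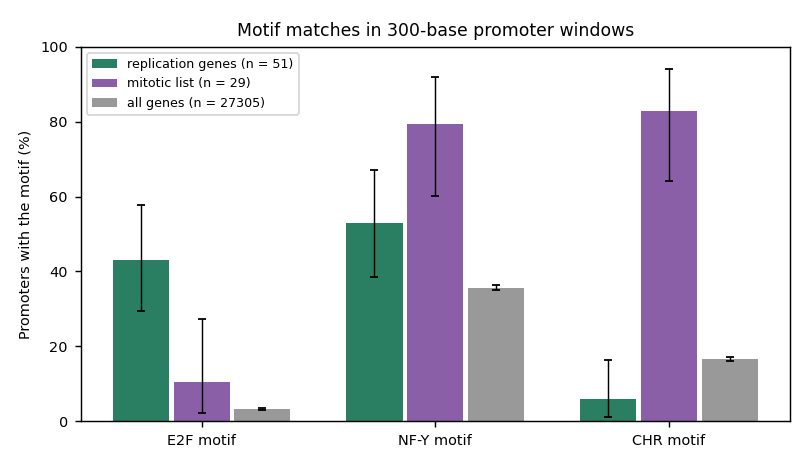
Share of promoter windows (vertical axis, percent) that hold the E2F, NF-Y or CHR motif on either strand, for 51 replication genes, 29 mitotic genes and all 27305 genes of the RefSeq table; bars are shares and whiskers are 95% exact binomial intervals. The E2F bar is highest for the replication genes at 43.1%, and the CHR bar is highest for the mitotic genes at 82.8%.

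The libraries held 14941556 counts with IRF3 siRNA, 14385959 with YAP siRNA and 13949401 with control siRNA. The targeted gene was checked first. YAP1 (chr11:102110461-102233423, hg38) had 3.58 FPKM with IRF3 siRNA, 2.23 with YAP siRNA and 5.89 with control siRNA, a count ratio of 0.380 for YAP siRNA against control (95% exact interval 0.334 to 0.431). IRF3 (chr19:49659569-49665875) had 2.90 FPKM with IRF3 siRNA, 3.86 with YAP siRNA and 3.55 with control siRNA, a count ratio of 0.818 for IRF3 siRNA against control (0.732 to 0.915). IRF3 RNA in the library labelled IRF3 siRNA was thus below the control by less than YAP1 RNA was in the YAP siRNA library. YAP1 was below the control with IRF3 siRNA too, at a count ratio of 0.608 (0.546 to 0.677). Count ratios are scaled by the column totals, and their intervals cover counting error alone, since copies made in amplification are not independent molecules.

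The labelled cell type was checked against markers. Of 11 mesenchymal markers 8 reached 1 FPKM in the control library, with VIM, an intermediate filament gene, at 451 FPKM with IRF3 siRNA, 469 with YAP siRNA and 511 with control siRNA. Of 11 epithelial markers CLDN7 alone did, with EPCAM at 0.11 FPKM with IRF3 siRNA, 0.16 with YAP siRNA and 0.08 with control siRNA. Of 11 gastric lineage markers 3 did, MUC1, GATA4 and GATA6, while TFF1, TFF2, MUC6 and GKN1 were listed at 0. The summed leukocyte markers were 1.77, 1.17 and 1.44 FPKM with IRF3, YAP and control siRNA. The epithelial and gastric markers of a stomach tumour were thus mostly absent from these cells.

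The replication genes were expressed throughout. They ranged over 0.587 to 67.7 FPKM with IRF3 siRNA, 0.678 to 73.0 with YAP siRNA and 0.832 to 60.6 with control siRNA. Their medians were 8.24, 8.24 and 8.32 FPKM in that order. Members at or above 1 FPKM were 53 with IRF3 siRNA, 53 with YAP siRNA, and 55 with control siRNA. Together they took 0.498% of all counts with IRF3 siRNA (95% exact interval 0.495 to 0.502%), 0.484% with YAP siRNA (0.480 to 0.487%) and 0.448% with control siRNA (0.445 to 0.452%). The share was thus higher in both knockdown libraries than in the control. In bulk RNA, a difference in the number of cells in S phase and a difference in RNA per cell cannot be told apart.

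None of the 55 kept replication genes differed from the control by 2-fold in either knockdown. On the log2 scale of FPKM plus 1, 0 of 55 kept members were 2-fold higher and 0 were 2-fold lower with IRF3 siRNA, where 0.387% of all kept genes were past 2-fold upwards and 0.612% downwards. In the YAP library, 0 members were 2-fold higher and 0 lower, beside 0.351% and 0.468% of all kept genes. At 1.5-fold on this scale, 1 member, TOP1, was lower with each siRNA and none was higher. The background at 1.5-fold was 1.59% higher and 5.88% lower with IRF3 siRNA, and 1.59% higher and 4.64% lower with YAP siRNA. The pseudocount damps genes of low level, so the count ratios were read in the same way. By count ratio 4 of the 55 were 1.5-fold lower with IRF3 siRNA, CDC7, RFC1, TOP1 and WDHD1, beside 12.7% of all kept genes. With YAP siRNA 4 were, ORC2, RFC1, TOP1 and WDHD1, beside 10.6%. WDHD1 was under 1 FPKM in both knockdown libraries and passed the level filter through the control library. Its place in both counts is thus in part a product of the filter. None was 1.5-fold higher, beside 3.17% (IRF3) and 3.13% (YAP). MCM8, which is under the level filter, was 1.5-fold lower with both siRNAs and 2-fold lower with IRF3 siRNA by count ratio, and it was the only one of the 57 past 2-fold. The background of 2-fold lower count ratios was 3.08% (IRF3) and 2.75% (YAP), and of 2-fold higher ones 1% (IRF3) and 1.05% (YAP).

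Within that narrow range most members stood slightly above the control. The median log2 ratio of the 55 members was 0.05 with IRF3 siRNA, beside -0.03 for all kept genes. With YAP siRNA it was 0.08, beside -0.02. Ratios above 0 were found for 31 of 55 members (56.4%) with IRF3 siRNA, where 46.1% of all kept genes were above 0. With YAP siRNA they were found for 35 of 55 (63.6%), where 46.5% of all kept genes were. The interval of the count ratio lay above 1 for 24 members and below 1 for 15 with IRF3 siRNA, and for 21 and 9 with YAP siRNA. Among the 11103 kept genes it lay above 1 for 2700 and below 1 for 3619 with IRF3 siRNA, and for 2460 and 3358 in the YAP comparison. Both comparisons use the same control library, so they are not independent of each other. With overlapping genes summed, the IRF3 median was -0.0016, so a direction for that median does not hold under every setting.

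**Figure D2:**
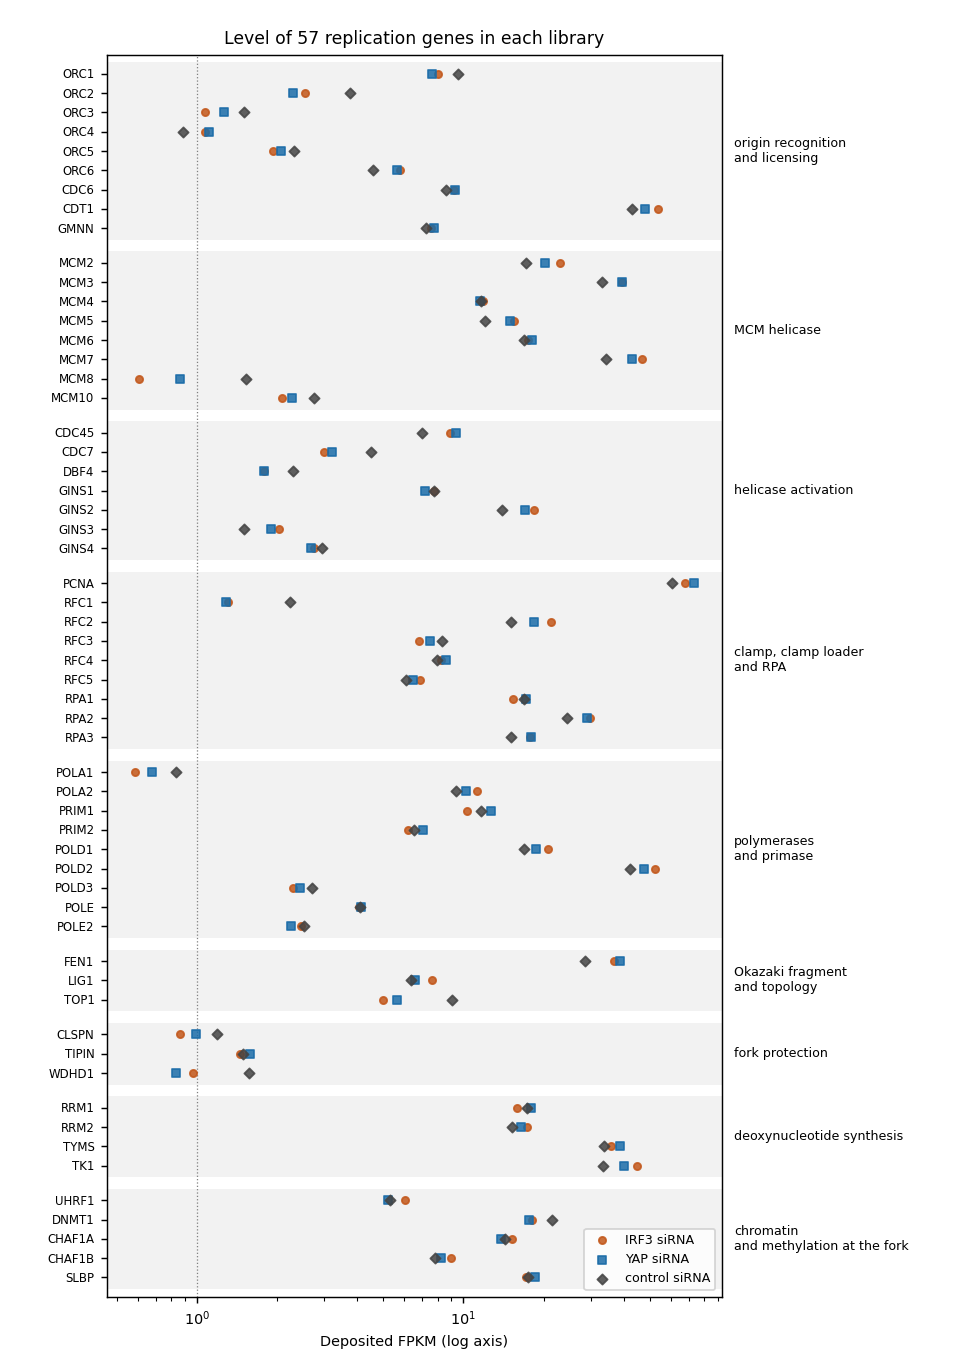
Deposited FPKM (horizontal log axis) of each of the 57 replication genes in the IRF3 siRNA, YAP siRNA and control siRNA libraries, grouped by role; each symbol is 1 library and the dotted line marks 1 FPKM. PCNA, at 67.7 (IRF3 siRNA), 73.0 (YAP siRNA) and 60.6 FPKM (control siRNA), lies farthest right, and POLA1 and MCM8 are the members whose mean is under 1 FPKM.

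**Figure D3:**
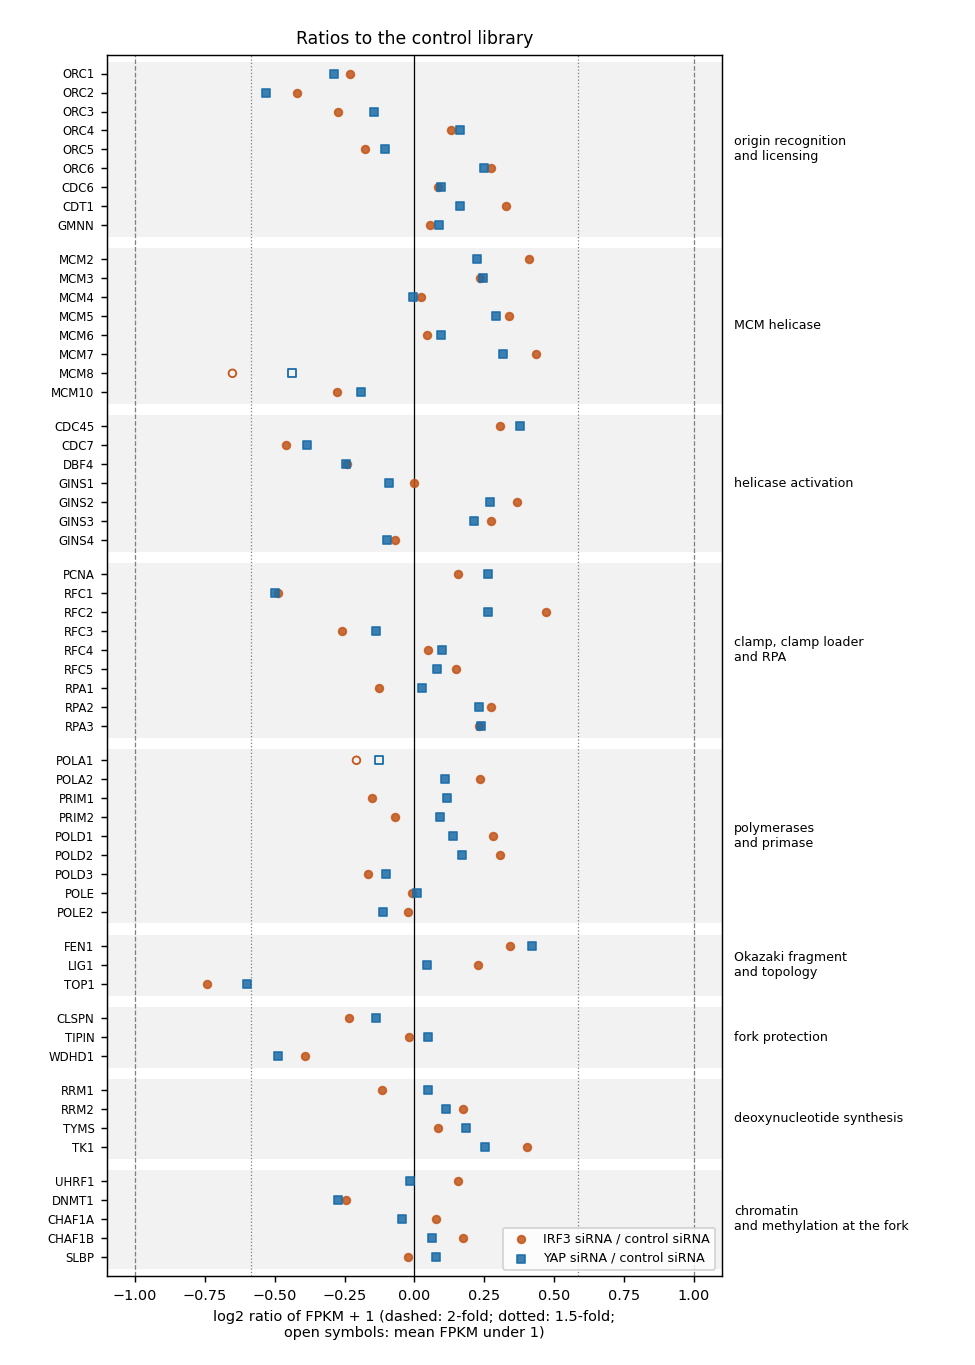
The log2 ratio of FPKM plus 1 of each knockdown library to the control library (horizontal axis) for the 57 genes by role; dashed lines mark 2-fold, dotted lines 1.5-fold, and open symbols are genes with a mean under 1 FPKM. No point is past a dashed line, and TOP1 is the kept gene past the dotted line on the left with both siRNAs.

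Within origin recognition, the largest differences ran in opposite directions. ORC2, a core subunit of the complex (chr2:200908973-200963680), had 2.55 FPKM with IRF3 siRNA, 2.29 with YAP siRNA and 3.75 with control siRNA. This gave log2 ratios of -0.42 (IRF3) and -0.53 (YAP), and count ratios of 0.680 (IRF3, 0.583 to 0.792) and 0.609 (YAP, 0.518 to 0.715). The trend shared by all genes in level, exon length and GC content is described further on, and with it removed the ORC2 log2 ratios were -0.21 (IRF3) and -0.37 (YAP). ORC6, the smallest subunit (chr16:46689643-46698394), had 5.76 FPKM with IRF3 siRNA, 5.64 with YAP siRNA and 4.59 with control siRNA. Its log2 ratios were 0.28 (IRF3) and 0.25 (YAP), with count ratios of 1.26 (IRF3, 1.12 to 1.41) and 1.23 (YAP, 1.09 to 1.38). Both knockdown libraries were thus below the control for ORC2 and above it for ORC6.

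Over the 6 ORC genes the median log2 ratio was -0.20 (IRF3 siRNA) and -0.12 (YAP siRNA), where 2 of 6 were above 0 in each. These medians were -0.07 (IRF3) and -0.02 (YAP) once the trend was removed. ORC1, the subunit whose level is known to follow the cell cycle, had 8.02, 7.65 and 9.57 FPKM with IRF3, YAP and control siRNA, at log2 ratios of -0.23 (IRF3) and -0.29 (YAP). ORC3 and ORC5 were lower too, by at most 0.27 (ORC3) and 0.18 (ORC5) on the log2 scale. ORC4 had 1.07, 1.12 and 0.891 FPKM with IRF3, YAP and control siRNA, but it shares exons with ACVR2A and MBD5, and with those genes summed its log2 ratios were -0.14 (IRF3) and -0.13 (YAP). ORC4 was under 1 FPKM in the control library and passed the level filter through the knockdown libraries. Its place among the members above 0 is thus in part a product of the filter.

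CDT1, which brings the helicase ring to origins (chr16:88803213-88809258), was the most abundant licensing factor. It had 53.9 FPKM with IRF3 siRNA, 48.0 with YAP siRNA and 42.8 with control siRNA, so that the control library was lowest. The log2 ratios were 0.33 (IRF3) and 0.16 (YAP), with count ratios of 1.26 (IRF3, 1.19 to 1.33) and 1.12 (YAP, 1.06 to 1.19). With the trend removed they were 0.05 (IRF3) and -0.05 (YAP) on the log2 scale. The loader CDC6 and the CDT1 inhibitor GMNN were within 0.10 of the control with both siRNAs. CDC6 had 9.21, 9.29 and 8.63 FPKM with IRF3, YAP and control siRNA and GMNN 7.58, 7.79 and 7.26 FPKM with IRF3, YAP and control siRNA.

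The helicase ring MCM2 to MCM7 stood higher in both knockdown libraries for most subunits. Its median log2 ratio was 0.29 with IRF3 siRNA, with 6 of 6 subunits above 0, and 0.23 with YAP siRNA, with 5 of 6 above 0. With the trend removed the medians were 0.19 (IRF3) and 0.12 (YAP), with 6 of 6 above 0 in each. The ring's genes encode equal parts of a single complex, yet their ratios were unequal.

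MCM7 (chr7:100092728-100101940) had 46.8 FPKM with IRF3 siRNA, 43.1 with YAP siRNA and 34.4 with control siRNA. Its log2 ratios were 0.43 (IRF3) and 0.32 (YAP), with count ratios of 1.36 (IRF3, 1.31 to 1.41) and 1.25 (YAP, 1.21 to 1.30). It shares exons with AP4M1, and summed with it the log2 ratios were 0.40 (IRF3) and 0.30 (YAP). MCM7 was the member with the most counts in the IRF3 and YAP siRNA libraries, at 6868 and 6085, against 4711 with control siRNA.

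MCM2 had 23.1 FPKM with IRF3 siRNA, 20.2 with YAP siRNA and 17.2 with control siRNA, at log2 ratios of 0.41 (IRF3) and 0.23 (YAP). MCM5 had 15.5, 14.98 and 12.04 FPKM with IRF3, YAP and control siRNA, at log2 ratios of 0.34 (IRF3) and 0.29 (YAP). MCM3 had 39.2, 39.5 and 33.2 FPKM with IRF3, YAP and control siRNA, at 0.24 with each. For all 4 of MCM2, MCM3, MCM5 and MCM7 the interval of the count ratio lay above 1 with both siRNAs.

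MCM6 and MCM4 were close to the control. MCM6 (chr2:135839626-135876426) had 17.4 FPKM with IRF3 siRNA, 18.1 with YAP siRNA and 16.8 with control siRNA, at count ratios of 1.03 (IRF3, 0.949 to 1.12) and 1.07 (YAP, 0.986 to 1.17). MCM4, on chromosome 8, had 11.8, 11.6 and 11.6 FPKM with IRF3, YAP and control siRNA, at count ratios of 1.02 (IRF3) and 0.996 (YAP). With counts scaled by column totals, MCM6 and MCM4 were within counting error of the control, while the other 4 subunits stood outside it. This depends on the scaling. With TMM factors, another scaling of the libraries given under processing, the log2 ratios were 0.15 (IRF3) and 0.19 (YAP) for MCM6. For MCM4 they were 0.13 (IRF3) and 0.08 (YAP).

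MCM10 and MCM8 carry the family's name but are not subunits of the ring. MCM10, which helps to activate the helicase (chr10:13161554-13211104), had 2.09 FPKM with IRF3 siRNA, 2.28 with YAP siRNA and 2.74 with control siRNA, at log2 ratios of -0.28 (IRF3) and -0.19 (YAP), or -0.07 (IRF3) and -0.03 (YAP) once the trend was removed. MCM8, a helicase of homologous recombination (chr20:5950652-5998977), had 84 counts with IRF3 siRNA, 115 with YAP siRNA and 197 with control siRNA. Its count ratios were 0.398 (IRF3, 0.305 to 0.516) and 0.566 (YAP, 0.446 to 0.716). MCM8 was singled out after its values were seen, and its mean of 0.998 FPKM lay just under the filter. The other member under it was POLA1 at 0.699, and just inside it were CLSPN at 1.02 and ORC4 at 1.03.

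Among the helicase activators, CDC45 and the kinase CDC7 lay on opposite sides of the control. CDC45, which joins the ring in the active helicase (chr22:19479459-19520612), had 8.88 FPKM with IRF3 siRNA, 9.40 with YAP siRNA and 6.99 with control siRNA. Its log2 ratios were 0.31 (IRF3) and 0.38 (YAP), with count ratios of 1.27 (IRF3, 1.13 to 1.43) and 1.34 (YAP, 1.19 to 1.52). CDC7, the kinase that fires origins by phosphorylating the ring (chr1:91500893-91525764), had 3.01 FPKM with IRF3 siRNA, 3.22 with YAP siRNA and 4.52 with control siRNA. Its log2 ratios were -0.46 (IRF3) and -0.39 (YAP), with count ratios of 0.666 (IRF3, 0.552 to 0.803) and 0.713 (YAP, 0.592 to 0.858). DBF4, the regulatory partner of CDC7, had 1.79, 1.78 and 2.30 FPKM with IRF3, YAP and control siRNA, at log2 ratios of -0.24 (IRF3) and -0.25 (YAP), and it shares exons with SLC25A40. Summed with it, the DBF4 log2 ratios were -0.18 (IRF3) and -0.04 (YAP), and with the trend removed they were -0.06 (IRF3) and -0.11 (YAP).

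The 4 GINS genes encode a single complex, and they were spread around the control. GINS2 had 933 counts with IRF3 siRNA, 837 with YAP siRNA and 665 with control siRNA, at log2 ratios of 0.37 (IRF3) and 0.27 (YAP). GINS2 shares exons with GSE1, however, and summed with it the log2 ratios were -0.26 (IRF3) and -0.28 (YAP). GINS3 had log2 ratios of 0.27 (IRF3) and 0.21 (YAP), while GINS1 and GINS4 lay within 0.10 of the control.

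PCNA, the sliding clamp that tethers polymerases (chr20:5114953-5126626), was the most abundant member. It had 67.7 FPKM with IRF3 siRNA, 73.0 with YAP siRNA and 60.6 with control siRNA, at log2 ratios of 0.16 (IRF3) and 0.26 (YAP). The count ratios were 1.12 (IRF3, 1.04 to 1.20) and 1.20 (YAP, 1.13 to 1.29). Both knockdown libraries were above the control, the YAP library more so. Once the trend was removed, the log2 ratios were 0.07 (IRF3) and 0.13 (YAP).

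The subunits of the clamp loader were spread widely to both sides of the control. RFC2, a small subunit (chr7:74231499-74254458), had 21.4 FPKM with IRF3 siRNA, 18.3 with YAP siRNA and 15.1 with control siRNA, at log2 ratios of 0.47 (IRF3) and 0.26 (YAP). Its count ratios were 1.41 (IRF3, 1.31 to 1.52) and 1.21 (YAP, 1.12 to 1.31), and with IRF3 siRNA this was the highest log2 ratio of the 55 kept members. RFC1, the large subunit (chr4:39287456-39366375), had 1.31 FPKM with IRF3 siRNA, 1.29 with YAP siRNA and 2.24 with control siRNA, at log2 ratios of -0.49 (IRF3) and -0.50 (YAP). Its count ratios were 0.584 (IRF3, 0.482 to 0.705) and 0.576 (YAP, 0.475 to 0.698). With the trend removed RFC2 stood at 0.31 (IRF3) and 0.10 (YAP), and RFC1 at -0.24 (IRF3) and -0.29 (YAP).

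Of the other loader subunits, RFC3 had log2 ratios of -0.26 (IRF3) and -0.14 (YAP), and RFC5 0.15 (IRF3) and 0.08 (YAP). RFC4, which shares exons with EIF4A2, had 0.05 (IRF3) and 0.10 (YAP) alone and -0.07 (IRF3) and -0.02 (YAP) when summed. The RPA trimer coats single-stranded DNA. RPA2 had 29.9, 29.01 and 24.5 FPKM with IRF3, YAP and control siRNA, and RPA3 had 17.8, 17.9 and 15.03 FPKM with IRF3, YAP and control siRNA, both above the control in both libraries. RPA1 had 15.4, 17.2 and 16.9 FPKM with IRF3, YAP and control siRNA, with the IRF3 library lowest.

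Among the polymerases, POLD2, the accessory subunit of polymerase delta (chr7:44114681-44124358), had 52.5 FPKM with IRF3 siRNA, 47.7 with YAP siRNA and 42.3 with control siRNA. That is a log2 ratio of 0.31 and of 0.17, with count ratios of 1.24 (IRF3, 1.20 to 1.29) and 1.13 (YAP, 1.09 to 1.17). The catalytic subunit POLD1 had 20.7, 18.7 and 16.9 FPKM with IRF3, YAP and control siRNA, at 0.28 (IRF3) and 0.14 (YAP). POLD3, another subunit of the same enzyme (chr11:74493851-74669117), had 2.29, 2.45 and 2.70 FPKM with IRF3, YAP and control siRNA, at -0.17 (IRF3) and -0.10 (YAP). POLD1 and POLD2 were thus highest with IRF3 siRNA, and POLD3 was lowest there. With the trend removed, however, POLD3 stood at 0.04 (IRF3) and 0.06 (YAP) on the log2 scale, so it was no longer below the control. POLD1 then stood at 0.09 (IRF3) and 0.02 (YAP) and POLD2 at 0.07 (IRF3) and -0.02 (YAP). Both thus stayed highest with IRF3 siRNA, but POLD2 with YAP siRNA was no longer above the control.

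POLE, the catalytic subunit of polymerase epsilon, was close to the control in both libraries, at 4.06 FPKM with IRF3 siRNA, 4.12 with YAP siRNA and 4.09 with control siRNA. Trend removal gave log2 ratios of 0.13 (IRF3) and 0.19 (YAP) for it. POLA2 of polymerase alpha had 11.2, 10.2 and 9.38 FPKM with IRF3, YAP and control siRNA. Its catalytic partner POLA1 had 71, 79 and 94 counts with IRF3, YAP and control siRNA. The primase subunit PRIM1 had 10.4 FPKM with IRF3 siRNA, 12.7 with YAP siRNA and 11.6 with control siRNA, and the other subunit, PRIM2, had log2 ratios of -0.07 (IRF3) and 0.09 (YAP).

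TOP1 (ENSG00000198900, chr20:41028818-41124487) had the lowest log2 ratio of FPKM plus 1 among the kept members with both siRNAs. By count ratio it was lowest with IRF3 siRNA alone. With YAP siRNA the count ratios of WDHD1 (0.530), RFC1 (0.576) and ORC2 (0.609) were lower. TOP1 had 5.01 FPKM with IRF3 siRNA, 5.65 with YAP siRNA and 9.07 with control siRNA, from 280, 304 and 473 counts with IRF3, YAP and control siRNA. The log2 ratios were -0.74 (IRF3) and -0.60 (YAP), with count ratios of 0.553 (IRF3, 0.475 to 0.642) and 0.623 (YAP, 0.538 to 0.721). With the trend removed they were -0.63 (IRF3) and -0.55 (YAP) on the log2 scale, so the YAP value then fell short of 1.5-fold. TOP1 acts in transcription as well as replication.

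FEN1, the flap endonuclease that trims Okazaki fragments (chr11:61792637-61797244), had 36.7 FPKM with IRF3 siRNA, 38.8 with YAP siRNA and 28.7 with control siRNA. Its log2 ratios were 0.34 (IRF3) and 0.42 (YAP), with count ratios of 1.28 (IRF3, 1.20 to 1.37) and 1.35 (YAP, 1.27 to 1.44). Its exons overlap those of FADS2 and TMEM258, and summed with them the log2 ratios were 0.28 (IRF3) and 0.15 (YAP). Trend removal gave 0.16 (IRF3) and 0.24 (YAP). LIG1, the ligase that seals the fragments, had 7.60 FPKM with IRF3 siRNA, 6.58 with YAP siRNA and 6.35 with control siRNA.

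The fork protection genes had few counts. WDHD1 and CLSPN were under 1 FPKM in both knockdown libraries and passed the level filter through the control library, where they were higher, so their lower ratios are in part a product of the filter. WDHD1, which couples polymerase alpha to the helicase (chr14:54938950-55027105), had 120 counts with IRF3 siRNA, 100 with YAP siRNA and 183 with control siRNA. Its FPKM values were 0.964, 0.835 and 1.58, its log2 ratios -0.39 (IRF3) and -0.49 (YAP), and its count ratios 0.612 (IRF3, 0.482 to 0.775) and 0.530 (YAP, 0.411 to 0.680). TIPIN, a partner of TIMELESS in fork stability (chr15:66336206-66386746), had 92, 96 and 88 counts with IRF3, YAP and control siRNA, at log2 ratios of -0.02 (IRF3) and 0.05 (YAP). CLSPN, the checkpoint adaptor, had 0.867, 0.994 and 1.19 FPKM with IRF3, YAP and control siRNA.

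Of the enzymes of deoxynucleotide synthesis, TK1, the S-phase thymidine kinase (chr17:78174075-78187233), was the farthest from the control. It had 44.6 FPKM with IRF3 siRNA, 40.1 with YAP siRNA and 33.5 with control siRNA, at log2 ratios of 0.40 (IRF3) and 0.25 (YAP). The count ratios were 1.33 (IRF3, 1.25 to 1.42) and 1.20 (YAP, 1.12 to 1.27), and with the trend removed the log2 ratios were 0.07 (IRF3) and -0.01 (YAP). TYMS, thymidylate synthase (chr18:657604-673578), had 35.8 FPKM with IRF3 siRNA, 38.5 with YAP siRNA and 33.7 with control siRNA, at 0.08 (IRF3) and 0.19 (YAP). It overlaps ENOSF1 and TYMSOS, and summed with them its log2 ratios were 0.03 (IRF3) and 0.13 (YAP). Its IRF3 value was -0.02 when the trend was removed.

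Ribonucleotide reductase, which makes deoxynucleotides from ribonucleotides, showed small differences. RRM1, the large subunit (chr11:4094707-4138876), had 15.9 FPKM with IRF3 siRNA, 18.0 with YAP siRNA and 17.3 with control siRNA, at log2 ratios of -0.12 (IRF3) and 0.05 (YAP). RRM2, the small subunit that is known to be made in S phase, had 17.3, 16.5 and 15.2 FPKM with IRF3, YAP and control siRNA, at 0.17 (IRF3) and 0.11 (YAP).

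DNMT1, the methyltransferase that copies DNA methylation (chr19:10133345-10231286), was below the control in both knockdown libraries with a narrow counting error. It had 18.0 FPKM with IRF3 siRNA, 17.6 with YAP siRNA and 21.6 with control siRNA, at log2 ratios of -0.25 (IRF3) and -0.28 (YAP). The count ratios were 0.836 (IRF3, 0.803 to 0.870) and 0.818 (YAP, 0.786 to 0.852). Its partner UHRF1, which recognises hemimethylated DNA, had 6.02, 5.23 and 5.30 FPKM with IRF3, YAP and control siRNA, at 0.16 (IRF3) and -0.02 (YAP), so with YAP siRNA it was level with the control while DNMT1 was below it. CHAF1B, a subunit of the histone chaperone CAF-1 (chr21:36385378-36419015), had 8.98, 8.24 and 7.84 FPKM with IRF3, YAP and control siRNA, and CHAF1A and the histone mRNA binding protein SLBP lay within 0.10 of the control.

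The direct comparison of the IRF3 and YAP knockdowns, which uses no control, placed the members close together. None of 55 was 1.5-fold apart, where 1.18% of all kept genes were higher and 1.28% lower with IRF3 siRNA. None was 2-fold apart, beside 0.297% and 0.315%. By count ratio none of the 57 was 1.5-fold apart either, beside 2.46% of kept genes higher and 2.89% lower with IRF3 siRNA, or 0.901% and 0.856% at 2-fold. The median log2 ratio of IRF3 siRNA to YAP siRNA was 0.01, beside -0.01 for all kept genes, and 29 of 55 members (52.7%) were above 0, beside 48.2%. PRIM1 had the lowest ratio, at -0.27, with a count ratio of 0.816 (0.734 to 0.906). RFC2 had the highest, at 0.21, with a count ratio of 1.17 (1.09 to 1.25). PRIM1 shares exons with HSD17B6 and NACA, and summed with them its log2 ratio was -0.11.

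The ratios of the members followed the properties of their transcripts. Across the 55 members Spearman's rho with GC content of the longest coding transcript was 0.70 with IRF3 siRNA and 0.51 with YAP siRNA, beside 0.41 (IRF3) and 0.29 (YAP) across 11066 kept genes. With mean FPKM it was 0.61 (IRF3) and 0.64 (YAP), beside 0.29 for each. With the length of the longest coding transcript it was -0.34 (IRF3) and -0.50 (YAP), beside -0.44 (IRF3) and -0.47 (YAP). The members share the same 3 libraries, and mean FPKM is made of the same values as the ratio, so these are descriptions. In the direct comparison rho with GC content was 0.57, beside 0.27. The 27 members of higher GC content, above 45.9%, had median log2 ratios of 0.24 (IRF3 siRNA) and 0.16 (YAP siRNA), against -0.09 (IRF3) and -0.02 (YAP) for the other 28. With the trend over all genes removed, the medians were 0.13 (IRF3) and 0.08 (YAP), against 0.05 (IRF3) and 0.06 (YAP) for the other 28. The part of GC content in the ratios of individual members was not tested.

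**Figure D4:**
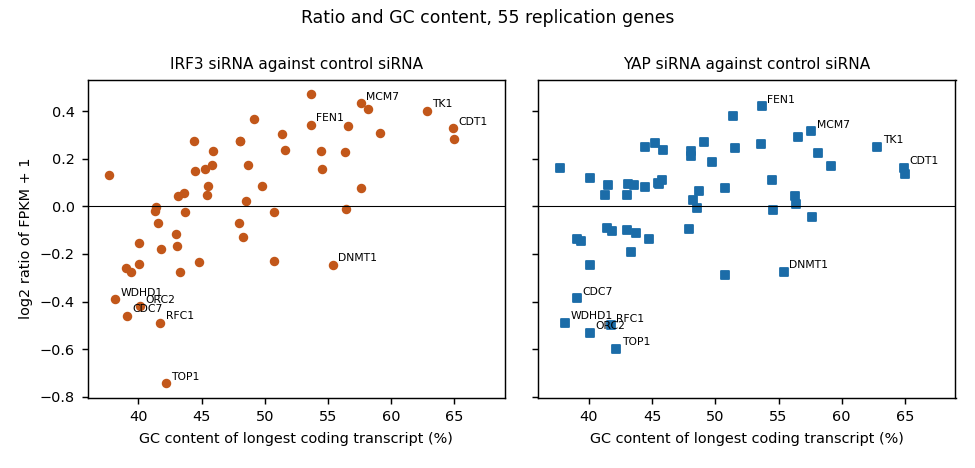
Log2 ratio of FPKM plus 1 to the control library (vertical axis) against the GC content of the longest coding transcript (horizontal axis, percent) for the 55 kept replication genes, with IRF3 siRNA on the left and YAP siRNA on the right; each point is 1 gene. Points climb to the right in both panels, with rho of 0.70 (IRF3 siRNA) and 0.51 (YAP siRNA), and TOP1 lies lowest in both.

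The ratios of kept members with and without an E2F motif in their window are given side by side, and a link between motif and ratio was not tested. In the 20 kept members with the motif the median log2 ratio was 0.12 in the IRF3 library and 0.10 in the YAP library. The 29 without it had medians of -0.02 (IRF3) and 0.08 (YAP). Ratios above 0 were found for 13 of the 20 with each siRNA, and for 14 (IRF3) and 19 (YAP) of the 29. With the trend removed the medians were 0.12 (IRF3) and 0.07 (YAP) with the motif, and 0.07 (IRF3) and 0.05 (YAP) without it. Median GC content of the transcript was 48.6% with the motif and 44.4% without.

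Other genes of the same processes differed from the control on a similar scale. Of 36 further replication factors 31 were kept. Their median log2 ratios were -0.03 (IRF3 siRNA) and -0.02 (YAP siRNA). With the trend removed they were 0.04 (IRF3) and 0.05 (YAP), so the sign of these medians depends on the setting. None of the 31 was past 2-fold on the scale of FPKM plus 1. By count ratio 1 was, TOPBP1. RNASEH2C, a subunit of the nuclease that removes RNA from DNA, had 15.1 FPKM with IRF3 siRNA, 14.9 with YAP siRNA and 9.63 with control siRNA, at log2 ratios of 0.60 (IRF3) and 0.58 (YAP), and overlaps KAT5. TOPBP1, which loads CDC45, had 0.788, 0.758 and 1.63 FPKM with IRF3, YAP and control siRNA, at -0.56 (IRF3) and -0.58 (YAP), with count ratios of 0.482 (IRF3, 0.379 to 0.611) and 0.464 (YAP, 0.362 to 0.592). TOPBP1 too passed the level filter through the control library. DTL, which targets CDT1 for destruction, had 3.72, 3.98 and 5.67 FPKM with IRF3, YAP and control siRNA, at -0.50 (IRF3) and -0.42 (YAP). TICRR, the partner of TOPBP1 in origin firing, had 2.89, 2.86 and 4.07 FPKM with IRF3, YAP and control siRNA, at -0.38 (IRF3) and -0.39 (YAP), or -0.17 (IRF3) and -0.27 (YAP) when summed with KIF7, whose exons it overlaps.

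Of 30 further genes of nucleotide synthesis 29 were kept, with median log2 ratios of 0.11 (IRF3) and 0.03 (YAP) and none past 1.5-fold against the control on the scale of FPKM plus 1. DCTPP1, a pyrophosphatase of the nucleotide pool, had 16.9 FPKM with IRF3 siRNA, 15.6 with YAP siRNA and 11.1 with control siRNA, at 0.56 (IRF3) and 0.45 (YAP), or 0.34 (IRF3) and 0.24 (YAP) when summed with ZNF771, whose exons it overlaps. PPAT, the first enzyme of purine synthesis, had 3.27, 3.07 and 4.82 FPKM with IRF3, YAP and control siRNA, at -0.45 (IRF3) and -0.52 (YAP). SAMHD1, which degrades deoxynucleotides, had 4.88, 5.34 and 7.17 FPKM with IRF3, YAP and control siRNA, at -0.47 (IRF3) and -0.37 (YAP). NME2, a nucleoside diphosphate kinase, had 158, 201 and 136 FPKM with IRF3, YAP and control siRNA, but it shares exons with the read-through gene NME1-NME2.

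The mitotic genes, a later wave of the same cycle, lay lower than the replication genes. Of 34, 32 were kept, with a median log2 ratio of -0.26 for IRF3 siRNA, where 10 were above 0, and of -0.17 for YAP siRNA, where 9 were. With the trend removed these medians were -0.14 (IRF3) and -0.20 (YAP). At 1.5-fold on the scale of FPKM plus 1, 4 were lower with IRF3 siRNA, beside 5.88% of all kept genes, and 5 with YAP siRNA, beside 4.64%. By count ratio 10 of the 32 were 1.5-fold lower with IRF3 siRNA, beside 12.7%, and 9 with YAP siRNA, beside 10.6%. None was 1.5-fold higher by count ratio, beside 3.17% (IRF3) and 3.13% (YAP). Some ran the other way: AURKB, a kinase of chromosome segregation, had log2 ratios of 0.21 (IRF3) and 0.31 (YAP), and MAD2L1, of the spindle checkpoint, 0.38 (IRF3) and 0.14 (YAP), both chosen after their values were seen. MKI67, the proliferation marker, had 2.02 FPKM with IRF3 siRNA, 1.78 with YAP siRNA and 5.02 with control siRNA, at log2 ratios of -0.99 (IRF3) and -1.12 (YAP) and count ratios of 0.403 (IRF3, 0.363 to 0.447) and 0.354 (YAP, 0.317 to 0.394). TOP2A, the topoisomerase that separates sister chromatids, had 12.9, 13.5 and 26.6 FPKM with IRF3, YAP and control siRNA, at -0.99 (IRF3) and -0.93 (YAP). ANLN and CENPF, with roles in cytokinesis and at the kinetochore, had log2 ratios of -0.9998 (IRF3) and -0.91 (YAP) for ANLN and of -0.74 (IRF3) and -0.88 (YAP) for CENPF, which passed the level filter through the control library. The difference between the lists has no test here.

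Order of level among the members depends on the gene length used. The deposited FPKM implies a length for each gene that was up to 2.54 times its union exon length in GENCODE release 29 (median 1.55, more than 1.5 for 31 of the 57 and more than 2 for 8). In the control library the deposited order was PCNA at 60.6, CDT1 at 42.8, POLD2 at 42.3, MCM7 at 34.4 and TYMS at 33.7 FPKM. Per kilobase of union exons it was POLD2 at 99.4, MCM7 at 77.0, PCNA at 74.5, TK1 at 69.2 and TYMS at 59.8 FPKM, with CDT1 at 48.9. The subunits of the MCM2 to MCM7 ring then stood at 24.4, 48.9, 19.5, 15.1, 18.1 and 77.0 FPKM in the control library, in the order of their numbers. The choice of length does not enter a count ratio between libraries.

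**Figure D5:**
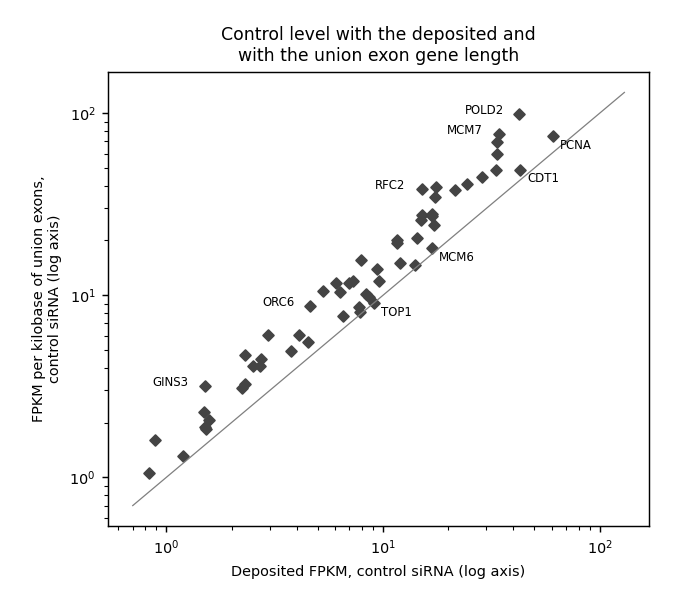
Control library level of the 57 genes as deposited (horizontal log axis, FPKM) and per kilobase of union exons (vertical log axis, FPKM); each point is 1 gene and the line marks equal values. No gene lies below the line beyond rounding, and MCM7, POLD2 and RFC2 lie among the farthest above it.

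Reads could be shared with other genes. Of the 57 members 25 share exons with another counted gene, and 9 have pseudogenes named after them in the table, 15 in all, whose summed counts were at most 31 for any member. Whether counting used the strand was not given in the sources used here. When overlapping genes were summed, the log2 ratio changed sign for ORC4, GINS2, RFC4 and RFC5 with IRF3 siRNA, and for ORC4, GINS2, RFC4 and CHAF1A with YAP siRNA. For these genes the direction is uncertain.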

How the data were processed

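RNA sequencing of 3 libraries, 1 per condition, was used. The authors aligned reads with TopHat2 2.0.9 to hg38, per the submitters' processing notes. Per the file headers, the deposited table gives raw counts and FPKM per gene. Gene counter, annotation release, gene lengths and strand setting were not given in the sources used here. All 45223 nonzero FPKM values checked were within 1% of the deposited count scaled by column total and an implied length.

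The log2 ratio of FPKM plus a pseudocount of 1 was computed for genes averaging at least 1 FPKM, and called by size at 2-fold and 1.5-fold. FPKM plus 1 understates the change of low genes, so calls by count ratio are given as well. Count ratios were scaled by column totals, with 95% exact (Clopper-Pearson) intervals. Lengths, GC content and exon overlaps came from GENCODE 29 on the same build, in which 55 of the 57 genes have identical coordinates. A trend in level, length and GC content, an additive spline with 4 degrees of freedom each, was removed over 11066 genes. TMM factors came from edgeR 4.0.16 in R 4.3.3, otherwise Python 3.11.15, numpy 2.4.6, pandas 2.3.3 and scipy 1.17.1 were used. The script was tested on simulated counts. Promoter windows are from RefSeq (GRCh38.p14), the first listed per gene, and 12 genes had several.

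The members and 8 gene lists were chosen with earlier results of these data known. Named in full were members past 1.5-fold, the 5 of highest control FPKM, and the highest and lowest mean ratio in each role group, plus up to 4 genes of each pathway list. Alternatives were another pseudocount, filter, threshold, centring, TMM, trend removal, summed overlaps and, chosen after seeing the data, union exon lengths and genes without overlaps.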

Additional observations from a re-analysis of the deposited data

How the results depend on the processing

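At a 1.5-fold threshold on FPKM plus 1 the count of lower members was 1 with IRF3 siRNA and 1 with YAP siRNA, TOP1 in both, in place of 0 at 2-fold; at 3-fold it stayed 0. With the 250 bases before the gene start alone, the E2F motif was found in 27.5% of member windows in place of 43.1%, beside 2.79% of all windows. Over 11 alternatives the members' median minus that of all genes was 0.03 to 0.14 with IRF3 siRNA against control and 0.06 to 0.12 with YAP siRNA against control. In the direct comparison of IRF3 siRNA with YAP siRNA it reached 0.05 and was 0 to 2 decimals at its lowest. The member median itself was -0.0016 to 0.16 with IRF3 siRNA and 0.05 to 0.18 with YAP siRNA; the lowest IRF3 value came with overlapping genes summed. TMM scaling placed the median of all genes at 0.06 in both comparisons with the control, and the members at 0.16 and 0.18. Of 642 recomputed log2 ratios of 21 named genes, 35 moved farther than the distance from the middle of their counting interval to its edge. Fold thresholds, level filters and leaving out genes with overlaps cannot change a gene's own ratio. Values under those settings thus stayed the same by construction. With TMM scaling 18 moved and 45 did not, with the trend removed 15 and 48, and with overlaps summed 2 and 61. None of the 21 was past 2-fold. No paired analysis was possible because each condition had 1 library. Depth limits POLA1, MCM8, WDHD1, CLSPN, TIPIN and ORC3, whose counts per library were lowest.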

Other observations

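Regulators of entry into S phase differed from the control in both directions. Of 27 genes of E2F, RB and G1/S control 23 were kept, with a median log2 ratio of -0.19 for IRF3 siRNA, where 4 were above 0, and of -0.15 for YAP siRNA, where 5 were. At 1.5-fold on the scale of FPKM plus 1, 5 were lower with IRF3 siRNA and 4 with YAP siRNA, beside 5.88% and 4.64% of all kept genes. By count ratio 7 of the 23 were 1.5-fold lower with IRF3 siRNA, beside 12.7%, and 10 with YAP siRNA, beside 10.6%. None was 1.5-fold higher by count ratio, beside 3.17% (IRF3) and 3.13% (YAP). CCND1, the cyclin that starts RB phosphorylation, had 14.8 FPKM with IRF3 siRNA, 15.3 with YAP siRNA and 25.7 with control siRNA. CCND2, its close relative, had 17.3, 16.9 and 28.9 FPKM. RB1, which holds E2F in check, had 1.03, 1.08 and 2.39 FPKM, and RBL2, a relative of RB1, had 2.25, 2.69 and 4.38 FPKM with IRF3, YAP and control siRNA. CCND1, CCND2, RB1 and RBL2 were thus below the control. E2F1 and CDK4 ran the other way, and both, like CCND3, were picked after their values were seen. E2F1, an activating E2F factor, had 21.7 FPKM with IRF3 siRNA, 21.8 with YAP siRNA and 15.1 with control siRNA, at count ratios of 1.44 (IRF3, 1.29 to 1.61) and 1.45 (YAP, 1.30 to 1.62). CDK4, the kinase partner of D-type cyclins, had log2 ratios of 0.18 (IRF3) and 0.31 (YAP). CCND3, another D-type cyclin, had 5.53 FPKM with IRF3 siRNA, 10.03 with YAP siRNA and 9.21 with control siRNA, so the IRF3 library alone was low. No test compares this list with the replication genes.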
